A study of Mus musculus with 6 samples.

Results

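Amino acid transporters of the solute carrier (SLC) families were described in the livers of mice given iD1, against the livers of mice given vehicle. The members were taken by symbol from the Slc1, Slc3, Slc6, Slc7, Slc36, Slc38 and Slc43 families. The rule left out 1 Slc7 gene. The rule uses symbols, and it was written with earlier results of these data known. Monoamine carriers such as Slc6a3 and Slc6a4 and the orphan Slc6a16 are therefore members, while Slc6a20a and Slc6a20b are not. The table held 59 such genes among 34866, and 33 of the 59 had enough counts to be tested. The iD1 group was 3 livers of male C57BL/6 mice, 8 weeks of age, given the compound iD1, whose identity, dose and exposure time the labels do not give. The vehicle group was 3 livers of mice of the same strain, sex and age, whose treatment label reads untreated and whose titles name a vehicle. Injection was into the peritoneum, and polyadenylated RNA was sequenced from stranded libraries. The labels do not state whether each library is a different animal, and the p-values then reflect only how these samples scatter, which may be technical.

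Amino acids cross membranes through carriers, and the liver takes up alanine, glutamine and other gluconeogenic amino acids from portal blood. System A carriers of the Slc38 family move small neutral amino acids with sodium, system N carriers move glutamine, histidine and asparagine, and cationic carriers of the Slc7 family move arginine, lysine and ornithine. Heavy chains of the Slc3 family bring Slc7 light chains to the plasma membrane, and several Slc36 and Slc38 carriers work on lysosomes, where amino acid supply is sensed by mTORC1. The Slc6 family also carries compounds related to amino acids, such as taurine, betaine, creatine and GABA.

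Totals ran from 23515417 to 37613394 rounded counts per library. The summed level of 8 hepatocyte markers ran from 94108 to 104470 CPM (counts scaled to library size) in iD1 libraries. In vehicle libraries it ran from 72610 to 95746 CPM, so the groups overlapped. Of the 8, 3 were called higher, where 8.42% of all tested genes were. Summed neutrophil markers (6 genes) ran from 3.99 to 12.1 CPM in iD1 and from 1.47 to 1.96 CPM in vehicle. Of the 5 tested, 3 were called higher. Markers of cholangiocytes, sinusoidal endothelium, Kupffer cells, stellate cells, lymphocytes and erythroid cells overlapped between the groups in their sums, with at most 1 marker of a list called in a direction. So did those of pancreas, of which Prss2, Cpa1, Ctrb1 and Pnlip had no count, and of kidney tubule, of which Slc12a1 and Aqp2 had none. None of the 6 sinusoidal endothelial markers was called. By edgeR's quasi-likelihood test, 4 of them were lower and 1 was higher at an unadjusted p under 0.05. The median log2 fold change of that list was -0.45. The part of the marker lists in the results was not tested. In whole liver, a change in the number of cells of a type and a change in RNA per cell cannot be told apart.

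Of the 33 tested transporters, 9 were higher and 3 were lower in iD1 livers. That is 36.4% called, where 16.7% of all 13718 tested genes were called, 8.42% higher and 8.3% lower. Among genes that averaged at least 10 CPM in a group, 11 of 16 transporters were called, against 20.7% of all such genes. The groups did not overlap in 17 of the 33, or 51.5%, where the share over all tested genes was 37.2%. The median log2 fold change was 0.29 over the tested transporters and 0.00 over all tested genes. By size, 4 of the 9 that rose and 2 of the 3 that fell differed at least 2-fold. Of the 33, 28 passed the filter on low counts in both groups, 3 only through the iD1 and 2 only through the vehicle libraries. Slc7a6, counted in the 9 and in the 4, passed only through iD1, where it was high. Slc1a7 passed only through vehicle, where it was high, and both count in the 17. Slc7a6 is not among the 11 called genes of at least 10 CPM. Of these 11, Slc36a4 averaged at least 10 CPM only in iD1, where it was high, and Slc36a1 only in vehicle, where it was high. Slc38a7, which was not called, also reached that level only in vehicle, its higher group. For these genes the cut on level depends on the difference itself. Calls are those of edgeR's quasi-likelihood test at a Benjamini-Hochberg adjusted p of 0.05 over the whole tested table. Scaled by library size only, where the median of all genes moved to -0.20, the counts were 6 higher and 4 lower. Without the unnumbered vehicle library they were 5 higher and 2 lower.

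**Figure D1:**
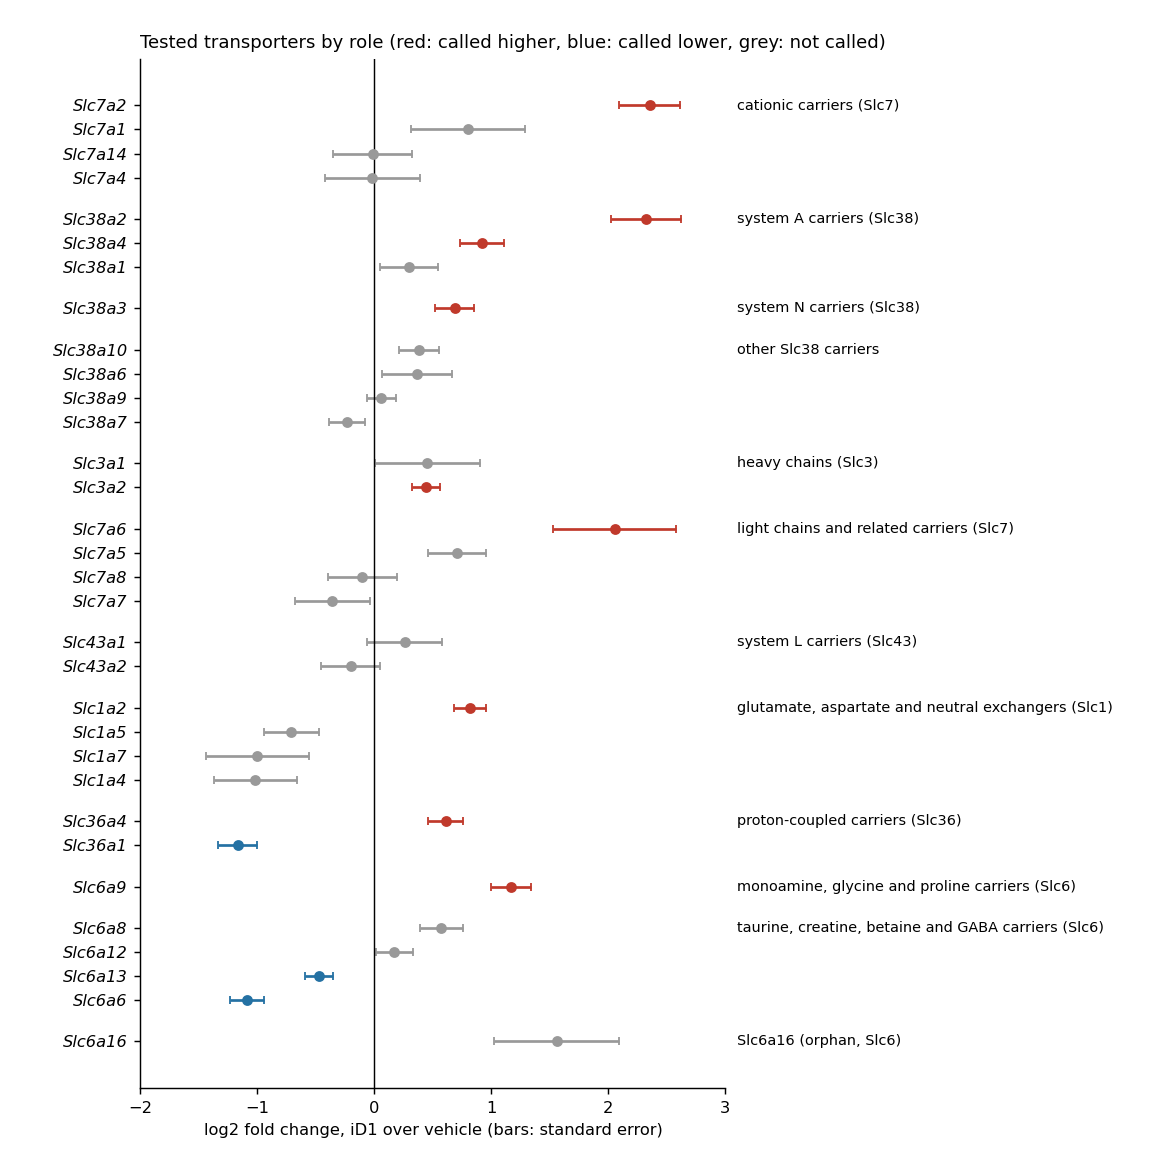
Log2 fold change (iD1 over vehicle, points) with standard error (bars) for 32 of the 33 tested transporters, grouped by role. The 9 red points are called higher, the 3 blue points called lower and the 20 grey points not called, and Slc7a2 and Slc38a2 lie farthest to the right among the called genes, at 2.35 and 2.32.

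A few genes held most of the difference in summed transporter mRNA. The summed level of all 59 was 3642, 4036 and 5027 CPM in the iD1 libraries, against 1953, 2376 and 2265 CPM in the vehicle libraries. Every iD1 library lay above every vehicle library, and the mean was 1.93 times as high. Slc7a2 made up 35.1% of the net difference in CPM, Slc38a4 33.5%, Slc38a3 16.7% and Slc38a2 13.0%. The sum of the other 55 was 671 ± 13.8 CPM in iD1 and 637 ± 45.9 CPM in vehicle (SD, n = 3 each), 1.05 times as high, and the groups overlapped. These sums are a description and were not tested.

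**Figure D2:**
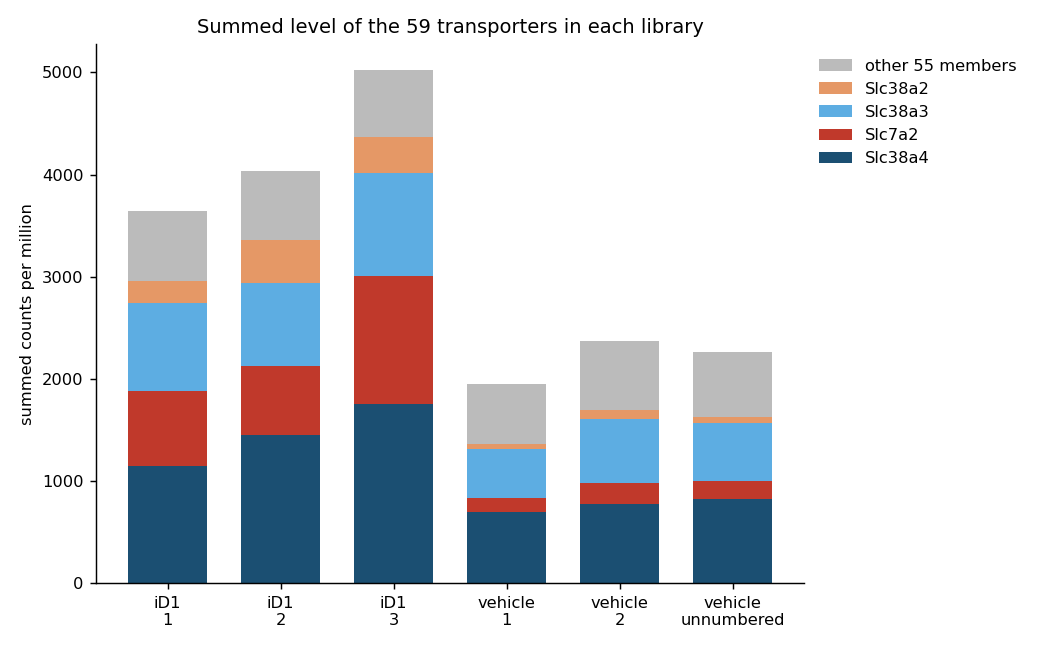
Summed CPM of the 59 transporters in each library (bars from 0), with Slc38a4, Slc7a2, Slc38a3, Slc38a2 and the remaining genes stacked. The iD1 bars reach 3642 to 5027 CPM and the vehicle bars 1953 to 2376 CPM, and the Slc7a2 segment widens most.

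Scaled by exon length, so that genes can be set against each other, Slc38a4 and Slc38a3 stood first and second in both groups. Slc38a4 had 545 ± 91.2 TPM (transcripts, scaled to exon length and depth) in iD1 and 325 ± 27.0 TPM in vehicle, and Slc38a3 had 275 ± 40.2 TPM in iD1 and 191 ± 34.9 TPM in vehicle (SD, n = 3 each). Slc7a2 followed in iD1 livers with 157 ± 54.3 TPM, where it had 34.6 ± 8.01 in vehicle. In vehicle livers the place after Slc38a3 belonged to Slc6a13, with 98.4 ± 13.0 TPM. In vehicle livers Slc7a2, Slc6a12 and Slc3a1 (34.6 ± 8.01, 31.7 ± 5.62 and 27.3 ± 0.928) lay within their spread of each other. The leading 3 genes held 77.2% of the length-scaled sum in iD1 and 74.7% in vehicle. The lengths are unions of all annotated exons, which understates genes whose liver transcript uses few of them.

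**Figure D3:**
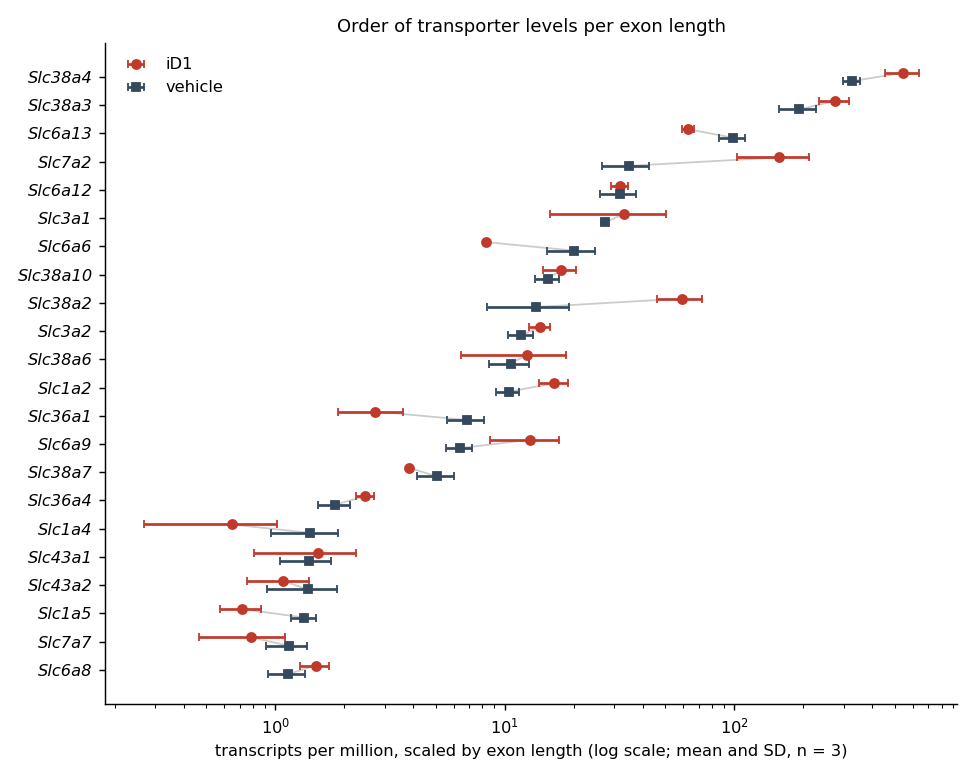
Level per exon length (TPM, log axis, mean and SD of 3 libraries) of the 22 transporters that reach 1 in a group, ordered by the vehicle level. Slc38a4 and Slc38a3 head the order in both groups, and Slc7a2 and Slc38a2 show the widest gaps between iD1 (circles) and vehicle (squares).

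Among the cationic carriers, Slc7a2, which encodes the arginine, lysine and ornithine carrier CAT2 of liver, rose most. It had 734, 681 and 1254 CPM in iD1 livers, against 144, 206 and 172 CPM in vehicle livers. The lowest iD1 library stood above 3 times the highest vehicle library. The log2 fold change was 2.35 (SE 0.26), a 5.11-fold difference, with an adjusted p of 0.000871. The call was kept without each of the 6 libraries, and under the 10 other alternatives. Slc7a2 (ENSMUSG00000031596) lies on chromosome 8 from 40862396 to 40922308, and its exons share 635 bases with Gm26584 on the other strand, which was not analysed here. Counts per gene do not separate its 2 known splice forms, CAT2A and CAT2B.

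The related carrier gene Slc7a1, which encodes CAT1 and is known to be scarce in adult hepatocytes, averaged 0.876 ± 0.453 CPM in iD1 and 0.499 ± 0.260 CPM in vehicle (SD, n = 3 each) and was not called (log2 fold change 0.80, SE 0.49, adjusted p = 0.295). Slc7a4 and Slc7a14 were under 1 CPM in every library and had log2 fold changes of -0.02 and -0.01. Slc7a3, encoding CAT3, was not tested. It had 5, 3 and 1 counts in the iD1 libraries and no count in the vehicle libraries, where a count of 0 allows up to 3 in a library.

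System A is the group in which Slc38a2 and Slc38a4 rose and Slc38a1 was not called. Slc38a2 encodes SNAT2, a sodium-coupled carrier of alanine and other small neutral amino acids whose mRNA is known to rise when cells lack amino acids. It had 221, 418 and 352 CPM in iD1 livers, against 51.5, 90.4 and 56.2 CPM in vehicle livers. All iD1 libraries lay above all vehicle libraries, and iD1 replicate 1 was the lowest of its group. The log2 fold change was 2.32 (SE 0.30, adjusted p = 0.00265), and the call was kept under all 16 alternatives.

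Slc38a4 encodes SNAT4, a system A carrier abundant in liver. Its levels were 1147, 1448 and 1751 CPM in iD1 livers, against 696, 774 and 826 CPM in vehicle livers. The groups did not overlap. Its log2 fold change was 0.92 (SE 0.19, adjusted p = 0.0105). Slc38a1, which encodes SNAT1, the system A form of brain and many other tissues, averaged 3.31 ± 0.945 CPM in iD1 and 2.68 ± 0.256 CPM in vehicle (SD, n = 3 each), and the groups overlapped (adjusted p = 0.454).

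These 3 genes lie in a row on the minus strand of chromosome 15 (GRCm38): Slc38a1 from 96571418 to 96642913, Slc38a2 from 96687392 to 96699730 and Slc38a4 from 96994820 to 97055956. The gap between the first pair is 44478 bases and that between the second 295089 bases. The CPM of Slc38a2 was 59.5, 187 and 88.0 times that of Slc38a1 in iD1 livers, against 21.2, 30.7 and 21.1 times in vehicle livers. Set against Slc38a4, Slc38a2 had 0.193, 0.289 and 0.201 of its CPM in iD1, against 0.0739, 0.117 and 0.0680 in vehicle. Such ratios within a library do not depend on scaling, and the groups did not overlap in either. The CPM of Slc7a2 was 1071, 1238 and 900.2 times that of Slc7a1 in iD1, against 180.3, 569 and 511 times in vehicle, again with no overlap. Slc7a1 had only 17, 17 and 30 counts in iD1 and 24, 15 and 11 in vehicle, so its ratios carry a large counting error. The exact permutation test (two-sided) gave p = 0.1 for each of 5 ratios of this kind, also after adjustment over the 5, which is the smallest p that 3 libraries against 3 allow. The pairs were chosen after their values were seen.

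Slc38a3, encoding the system N glutamine carrier SNAT3 of hepatocytes, also rose. It had 860.3, 811 and 1015 CPM in iD1 livers, against 472, 626 and 570.2 CPM in vehicle livers, with no overlap. It differed by 0.69 on the log2 scale (SE 0.17, adjusted p = 0.0227). This call ended (adjusted p) when vehicle replicate 1 (0.0641), the unnumbered vehicle library (0.0802) or iD1 replicate 3 (0.0889) was left out, and with library size only (0.0706). The other system N gene, Slc38a5, had 10 counts over the iD1 and 7 over the vehicle libraries and was not tested.

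None of the 4 other tested Slc38 genes was called by edgeR's quasi-likelihood test, none had an unadjusted p under 0.05, and DESeq2 called none of them. Slc38a10 had 54.9, 89.9 and 67.1 CPM in iD1 livers, against 51.3, 57.7 and 54.1 CPM in vehicle livers. Slc38a6 had 80.2, 33.6 and 61.7 CPM in iD1, against 50.2, 47.3 and 38.5 CPM in vehicle. In both, the iD1 libraries were the more scattered and overlapped the vehicle libraries. Slc38a10 was called higher without iD1 replicate 1 (log2 fold change 0.53, adjusted p = 0.0370) and Slc38a6 without iD1 replicate 2 (0.64, adjusted p = 0.0399). The lysosomal glutamine carrier gene Slc38a7 averaged 9.89 ± 0.925 CPM in iD1 and 11.6 ± 1.89 CPM in vehicle (SD, n = 3 each), with overlap. Slc38a9, the lysosomal arginine sensor that signals to mTORC1, averaged 9.21 ± 0.534 CPM in iD1 and 8.82 ± 0.373 CPM in vehicle (SD, n = 3 each), with a log2 fold change of 0.06 (SE 0.13).

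**Figure D4:**
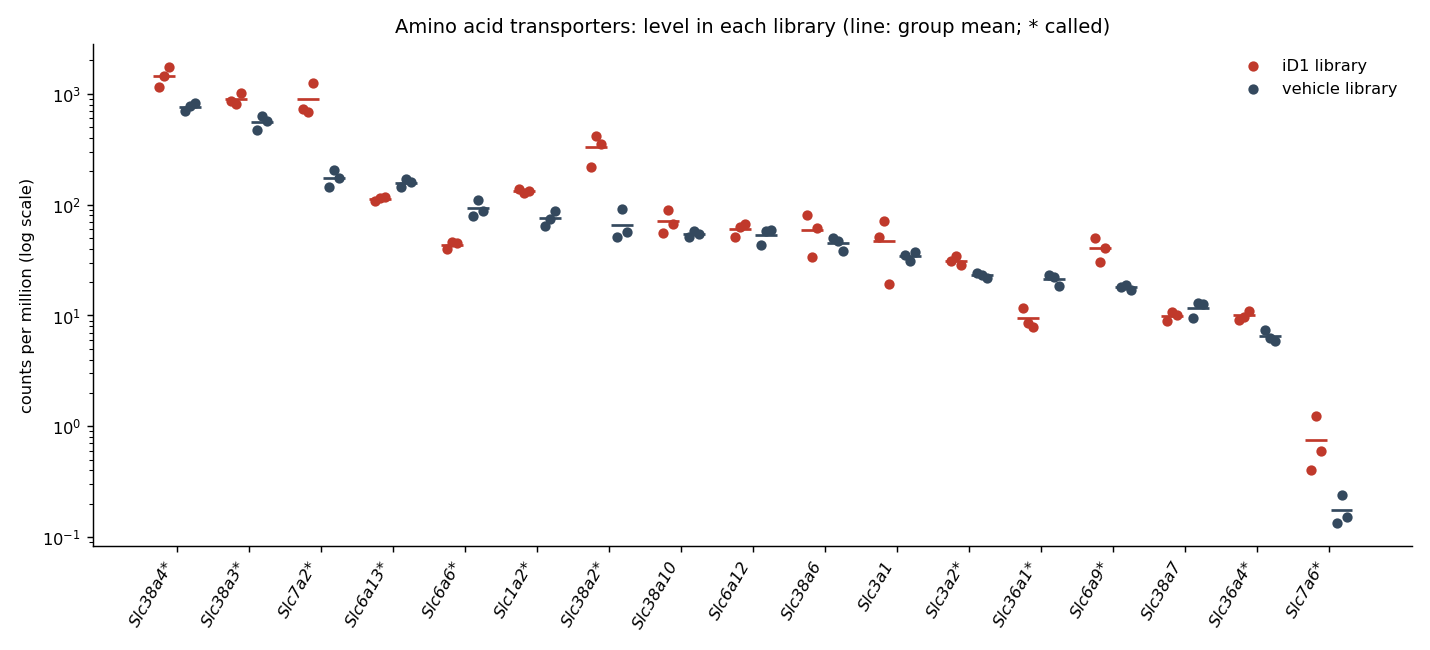
CPM (log axis) in each iD1 library (red) and each vehicle library (dark) for the 17 transporters that were called or averaged at least 10 CPM in a group, with lines at the group means and stars at called genes. Slc7a2 and Slc38a2 are separated by the widest gaps of the abundant genes, Slc6a6 and Slc36a1 are lower in iD1, and Slc3a1 and Slc38a6 are scattered in iD1.

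The heavy chain Slc3a2, known as CD98hc or 4F2hc, rose by little. It had 30.9, 34.1 and 28.3 CPM in iD1 livers, against 24.2, 23.0 and 21.6 CPM in vehicle livers. The groups did not overlap, with a log2 fold change of 0.44 (SE 0.12, adjusted p = 0.0313). Leaving out vehicle replicate 1 (0.0566), vehicle replicate 2 (0.0848), the unnumbered vehicle library (0.122) or iD1 replicate 2 (0.0980) ended the call, as did upper-quartile factors (0.0629) or library size only (0.247).

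The 4 tested light chain genes, Slc7a5, Slc7a6, Slc7a7 and Slc7a8, had lower levels per exon length, under 1 TPM on average in iD1, where the heavy chain had 14.2 TPM. Slc7a5, encoding LAT1, a carrier of leucine and aromatic amino acids, averaged 2.11 ± 0.416 CPM in iD1 and 1.29 ± 0.0855 CPM in vehicle (SD, n = 3 each). Its groups did not overlap but it was not called (log2 fold change 0.70, SE 0.25, adjusted p = 0.0845). Slc7a6, encoding the y+LAT2 chain, was called higher on few counts. It had 10, 38 and 13 counts in iD1 libraries and 4, 10 and 5 in vehicle libraries, and passed the filter on low counts only through the iD1 libraries, where it was high. Its log2 fold change was 2.05 (SE 0.53, adjusted p = 0.0270). That call ended without vehicle replicate 1 (0.0855), vehicle replicate 2 (0.0581), the unnumbered vehicle library (0.100), iD1 replicate 2 (0.129) or iD1 replicate 3 (0.0539). Slc7a7 and Slc7a8, encoding y+LAT1 and LAT2, had log2 fold changes of -0.36 and -0.10 at 1.27 to 2.10 CPM on average, with overlapping groups.

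The other heavy chain, Slc3a1 (rBAT), was not called. It had 50.8, 70.7 and 19.4 CPM in iD1 livers, against 34.8, 30.7 and 37.6 CPM in vehicle livers. Of the iD1 libraries, 2 lay above and 1 below all vehicle libraries. The log2 fold change was 0.45 (SE 0.45, adjusted p = 0.550), and without iD1 replicate 3 it was 0.83 with an adjusted p of 0.0215. Its exons share 601 bases with Prepl (log2 fold change -0.13), which is read from the opposite strand, and the sources used here do not say whether counting used strand. Its partner Slc7a9, the cystine carrier of kidney and gut, had 1 count over the iD1 and 2 over the vehicle libraries.

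Slc43a1 and Slc43a2, encoding the system L carriers LAT3 and LAT4 that need no heavy chain, averaged 5.31 ± 2.22 and 6.67 ± 1.91 CPM in iD1 and 4.40 ± 0.772 and 7.62 ± 2.07 CPM in vehicle (SD, n = 3 each). Their log2 fold changes of 0.26 (SE 0.32) and -0.20 (SE 0.25) did not pass the test.

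In the Slc1 family, Slc1a2 rose. It encodes the glutamate carrier GLT-1, which in liver is known from the perivenous hepatocytes that make glutamine. It had 139.6, 126 and 134 CPM in iD1 livers, against 64.6, 74.9 and 87.6 CPM in vehicle livers. The iD1 libraries lay close together and above all vehicle libraries. On the log2 scale the difference was 0.81 (SE 0.14, adjusted p = 0.00467) and the call was kept under all 16 alternatives. Glul, the glutamine synthetase gene of the same cells, measured 659 ± 36.5 CPM in iD1 and 483 ± 19.8 CPM in vehicle (SD, n = 3 each) and was not called (adjusted p = 0.0509). It was named after its value was seen.

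The other tested Slc1 genes had lower values in iD1. Slc1a5, encoding the glutamine exchanger ASCT2, had 1.73, 2.39 and 1.49 CPM in iD1, against 2.79, 3.30 and 3.16 CPM in vehicle (log2 fold change -0.71, SE 0.23, adjusted p = 0.0666). Slc1a4, encoding ASCT1, a carrier of serine and alanine, had 2.34, 0.874 and 1.35 CPM in iD1, against 2.59, 3.93 and 2.60 CPM in vehicle (-1.02, SE 0.35, adjusted p = 0.0792). Slc1a7 averaged 0.275 ± 0.0854 CPM in iD1 and 0.570 ± 0.200 CPM in vehicle (SD, n = 3 each) and reached the filter in its vehicle libraries only. The groups did not overlap in any of these genes, but none was called by edgeR's quasi-likelihood test, and all 3 had an unadjusted p under 0.05. Slc1a4 was called lower by DESeq2 (adjusted p = 0.0396) with no filter on low counts (0.0331) and without iD1 replicate 1 (0.0141), and Slc1a5 with library size only (0.0282), with upper-quartile factors (0.0461) and without iD1 replicate 2 (0.0408).

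In the Slc36 family, Slc36a1 and Slc36a4 moved in opposite directions. Slc36a1, which encodes PAT1, a carrier of glycine, alanine and proline found on lysosomes and at the cell surface, fell. It had 11.7, 8.57 and 7.89 CPM in iD1 livers, against 23.0, 22.2 and 18.3 CPM in vehicle livers, a log2 fold change of -1.17 (SE 0.17, adjusted p = 0.00226). Slc36a4, encoding PAT4, a high-affinity carrier of proline and tryptophan, had 9.19, 9.77 and 11.1 CPM in iD1, against 7.42, 6.31 and 5.94 CPM in vehicle, a log2 fold change of 0.61 (SE 0.15, adjusted p = 0.0218). Neither gene's groups overlapped, and the CPM of Slc36a4 was 0.784, 1.14 and 1.40 times that of Slc36a1 in iD1, against 0.323, 0.285 and 0.324 times in vehicle. The call of Slc36a1 was kept under all 16 alternatives. That of Slc36a4 ended when vehicle replicate 2 (adjusted p = 0.0717), the unnumbered vehicle library (0.0864) or iD1 replicate 3 (0.0800) was left out, and with library size only (0.123). Slc36a2 and Slc36a3, which lie next to Slc36a1 on chromosome 11, were not tested. Slc36a2 had 34 counts in each group and Slc36a3 had 1 count, in a vehicle library.

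The taurine carrier gene Slc6a6 fell. Taurine is conjugated to bile acids in hepatocytes and also serves as an osmolyte. The gene lies on chromosome 6 from 91684053 to 91759066 (GRCm38). Slc6a6 had 39.4, 46.5 and 44.9 CPM in iD1 livers, against 79.7, 110.3 and 87.8 CPM in vehicle livers. Each iD1 library lay below the lowest vehicle library. Its log2 fold change was -1.09 (SE 0.14, adjusted p = 0.00159) and the call was kept under all 16 alternatives.

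Slc6a13, encoding GAT2, a hepatocyte carrier of GABA and taurine, fell as well. It had 108, 115 and 117 CPM in iD1 livers, against 143, 169 and 161 CPM in vehicle livers, with no overlap and a log2 fold change of -0.47 (SE 0.12, adjusted p = 0.0253). That call was lost without each library but vehicle replicate 1, with adjusted p-values from 0.0542 without iD1 replicate 2 and 0.0578 without iD1 replicate 1, through 0.0768 without iD1 replicate 3 and 0.0868 without vehicle replicate 2, to 0.0906 without the unnumbered vehicle library. Slc6a12, encoding the betaine carrier BGT1, starts 5342 bases after the end of Slc6a13 on the plus strand of chromosome 6. It had 51.3, 62.5 and 67.0 CPM in iD1 livers, against 42.9, 58.0 and 59.5 CPM in vehicle livers, with overlap (log2 fold change 0.17, SE 0.16, -0.034 with library size only). The CPM of Slc6a13 was 2.11, 1.85 and 1.74 times that of Slc6a12 in iD1, against 3.33, 2.92 and 2.70 times in vehicle, again with no overlap. Slc6a8, the creatine carrier, averaged 4.83 ± 0.544 CPM in iD1 and 3.25 ± 0.377 CPM in vehicle (SD, n = 3 each), with no overlap and an adjusted p of 0.0565.

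Slc6a9, which encodes the glycine carrier GlyT1, rose. It had 50.1, 30.4 and 40.8 CPM in iD1 livers, against 18.2, 18.8 and 17.0 CPM in vehicle livers. The vehicle libraries were nearly level and all iD1 libraries stood above them. The log2 fold change was 1.17 (SE 0.17, adjusted p = 0.00260), and the call was kept under all 16 alternatives. Of its exon bases, 1429 are shared with Ccdc24 on the other strand, which averaged 0.509 CPM in iD1 and 1.24 CPM in vehicle.

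Slc6a16, an orphan of the family, had 9, 25 and 31 counts in iD1 libraries and 12, 12 and 6 in vehicle libraries and was not called (adjusted p = 0.0755). It passed the filter on low counts through the iD1 libraries, where it was high. It was called higher without iD1 replicate 1 (adjusted p = 0.0222) and with no filter on low counts (0.0451).

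The 26 transporters that were not tested averaged at most 0.384 CPM in a group. They include the neutral amino acid carrier Slc6a19 of kidney and gut, the dopamine carrier Slc6a3, Slc6a11, Slc6a14 and Slc7a12, the 5 with no count in any library. The neuronal and epithelial glutamate carrier Slc1a1 had 4 counts over the iD1 and 2 over the vehicle libraries, and the glial Slc1a3 had 10 over the iD1 and 19 over the vehicle libraries. The serotonin carrier Slc6a4 had 10 counts over the iD1 and 14 over the vehicle libraries, and Slc6a18, the neighbour of Slc6a19 on chromosome 13, had 12 over the iD1 and 22 over the vehicle libraries. The other 12, Slc1a6, Slc38a8, Slc38a11, Slc6a2, Slc6a5, Slc6a7, Slc6a15, Slc6a17, Slc6a21, Slc7a10, Slc7a13 and Slc7a15, had at most 20 counts over the iD1 and 23 over the vehicle libraries. Differences in such genes were not detectable at this depth, where 1 count is worth 0.0241 to 0.0464 CPM.

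Promoter windows, from 250 bases before to 50 after an annotated start, were given for 9 of the 12 called transporters, Slc7a2, Slc6a6 and Slc38a3 not among them. They were searched on both strands for letters known from genes that respond to amino acid lack, cAMP or glucocorticoids. The element TGATGNAA, known from ATF4 targets, was in none of the 9, and 4.51% of all 27025 genes with a window hold it. The cAMP element TGACGTCA was in none of the 9 (2.03% of all genes), nor was the glucocorticoid element (0.537%). At shares this low, finding none in 9 genes says little. Sequence outside the windows, introns included, was not searched, so it does not follow that these genes lack the elements. The core TGACG, which is part of TGACGTCA, was in a window of 5 of the 9, namely Slc36a1, Slc38a2, Slc38a4, Slc6a9 and Slc7a6, and 23.0% of all genes hold it. Of all 24 tested transporters with a window, called or not, 10 hold it. Slc6a9 and Slc38a4 have 3 windows each and hold it only in the second. A gene with more windows has more chances to hold TGACG, and window numbers differed between genes. Of all 32851 windows, 20.8% hold it. Of the 5 called genes, Slc36a1 fell and the others rose. The windows below belong to the 4 called transporters of smallest p that had one, shown because they put a gene that fell beside genes that rose. The Slc1a2 window holds neither TGACG nor its reverse complement. It lies inside the gene, which begins at 102658659 on the plus strand, and sequence before that base was not searched. The only window of Slc3a2, another of the 9, also lies inside its gene. Capitals in the windows mark TGACG or its reverse complement. All are written 5′ to 3′ on the gene's strand, from RefSeq on GRCm38.p6: Slc36a1 chr11:55204090-55204389 (plus), Slc38a2 chr15:96699679-96699978 (minus), the second of 3 Slc6a9 windows chr4:117849100-117849399 (plus) and Slc1a2 chr2:102706188-102706487 (plus).
Slc36a1: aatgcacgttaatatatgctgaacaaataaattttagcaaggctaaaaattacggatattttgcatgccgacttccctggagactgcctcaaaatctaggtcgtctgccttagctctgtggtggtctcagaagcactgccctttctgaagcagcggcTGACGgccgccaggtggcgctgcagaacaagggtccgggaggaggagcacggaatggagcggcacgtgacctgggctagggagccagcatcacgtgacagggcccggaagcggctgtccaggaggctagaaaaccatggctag
Slc38a2: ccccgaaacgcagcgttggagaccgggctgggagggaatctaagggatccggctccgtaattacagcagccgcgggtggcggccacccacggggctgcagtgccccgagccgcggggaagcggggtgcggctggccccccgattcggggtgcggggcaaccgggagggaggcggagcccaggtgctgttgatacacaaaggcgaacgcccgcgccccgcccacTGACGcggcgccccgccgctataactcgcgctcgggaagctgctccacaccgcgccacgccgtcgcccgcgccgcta
Slc6a9: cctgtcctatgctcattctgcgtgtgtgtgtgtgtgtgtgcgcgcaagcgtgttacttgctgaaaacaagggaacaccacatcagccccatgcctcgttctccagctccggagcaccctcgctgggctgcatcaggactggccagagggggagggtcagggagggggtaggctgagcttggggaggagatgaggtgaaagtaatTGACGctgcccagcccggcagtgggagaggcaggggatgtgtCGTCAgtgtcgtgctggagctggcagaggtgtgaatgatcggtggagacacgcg
Slc1a2: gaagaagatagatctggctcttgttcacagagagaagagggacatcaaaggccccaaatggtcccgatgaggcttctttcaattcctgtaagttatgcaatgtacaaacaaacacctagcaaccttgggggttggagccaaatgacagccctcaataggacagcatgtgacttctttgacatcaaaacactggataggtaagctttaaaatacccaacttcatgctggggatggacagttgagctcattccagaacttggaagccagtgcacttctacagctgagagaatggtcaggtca
The element begins 93 bases before the start in Slc36a1 and 27 before it in Slc38a2. In Slc6a9 it begins 46 bases before the start, and its reverse complement 4 before it. A match of letters is a description of the window and not a binding site.

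Carriers and partners outside the 59 transporters were read from a list of 13 genes, 8 of them tested. The list includes Slc6a20a and Slc6a20b, which carry Slc6 symbols but are not among the 59. Neither was tested. Of the 8, 2 were higher and 1 was lower, or 37.5% called, where 16.7% of all genes were. Slc16a10, encoding TAT1, a carrier of aromatic amino acids, measured 136 ± 23.9 CPM in iD1 and 70.5 ± 17.2 CPM in vehicle (SD, n = 3 each), with an adjusted p of 0.0155. Slc17a5, the lysosomal carrier of sialic acid and acidic amino acids, rose by 0.43 on the log2 scale, and Mfsd12, a lysosomal cysteine importer, fell by 0.63. The count higher was 1 without vehicle replicate 2 or the unnumbered vehicle library and 0 without iD1 replicate 2 or iD1 replicate 3. Mfsd12 lost its call without any 1 library.

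Of 38 genes of amino acid sensing by mTORC1, 3 were higher and 2 lower, or 13.2%, where 16.7% of all genes were called. Folliculin, Flcn, and its partner Fnip1, which act on the Rag GTPases of lysosomes, were both higher. Flcn measured 23.6 ± 4.74 CPM in iD1 and 9.13 ± 0.569 CPM in vehicle, and Fnip1 measured 37.9 ± 4.71 CPM in iD1 and 21.1 ± 0.196 CPM in vehicle (SD, n = 3 each). The leucine sensor Sesn2 was the third gene higher. Depdc5, a subunit of the GATOR1 complex, and Mlst8, a subunit of mTORC1, fell by 0.57 and 0.54 on the log2 scale. The count lower was 1 without iD1 replicate 1 and 0 without vehicle replicate 1, vehicle replicate 2, the unnumbered vehicle library or iD1 replicate 3. Scaled by upper-quartile factors it was 4, and by library size only it was 5.

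Of 21 tested genes of the amino acid response, the program of the kinase GCN2 and the factor ATF4, 11 were higher and 0 were lower by edgeR's quasi-likelihood test, or 52.4% called, where 16.7% of all genes were. By DESeq2 these were 11 and 0 as well, and at an unadjusted p under 0.05 there were 11 higher and 1 lower. Of the 11 called, Chac1 passed the filter on low counts only through the iD1 libraries, where it was high. It had 7.17, 24.0 and 14.7 CPM in iD1, against 0.632, 1.01 and 0.214 CPM in vehicle. The 4 of smallest p were Sesn2, Fgf21, Ppp1r15a and Cebpb. Fgf21, a hormone of the fasted liver, measured 4.44 ± 0.701 CPM in iD1 and 0.567 ± 0.300 CPM in vehicle (SD, n = 3 each). Sesn2 measured 11.8 ± 3.02 CPM in iD1 and 2.87 ± 0.368 CPM in vehicle. The phosphatase subunit gene Ppp1r15a measured 19.9 ± 5.85 CPM in iD1 and 5.92 ± 0.264 CPM in vehicle, and the factor gene Cebpb 236 ± 28.7 CPM in iD1 and 70.9 ± 20.4 CPM in vehicle. The median log2 fold change was 0.72 over the 21, where it was 0.00 over all tested genes. The 10 not called ran from -0.47 in Psph, the 1 lower at an unadjusted p under 0.05, to 0.72 in Aldh18a1. Among them Shmt2 had 0.01 and Atf5 had 0.02, named after their values were seen. The lists are not separate, as Sesn2 is also counted among the sensing genes and Gpt2 among the enzymes that were higher. The asparagine synthetase gene Asns measured 12.5 ± 3.05 CPM in iD1 and 6.55 ± 1.67 CPM in vehicle, and Atf4 itself measured 74.9 ± 9.12 CPM in iD1 and 90.2 ± 5.91 CPM in vehicle (SD, n = 3 each, adjusted p = 0.177). Both were chosen after their values were seen. The count higher was 7 without vehicle replicate 1, the unnumbered vehicle library or iD1 replicate 2.

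Of 40 enzymes that use amino acids, 10 were higher and 4 lower, or 35% called, where 16.7% of all genes were. All but Gatm averaged at least 10 CPM in a group, and 20.7% of all tested genes at that level were called. Their median log2 fold change was 0.17, beside 0.00 over all tested genes. The lowest p-values belonged to Shmt1, Gatm, Aass and Tat. Shmt1, which interconverts serine and glycine in the cytosol, measured 96.5 ± 7.45 CPM in iD1 and 187 ± 15.4 CPM in vehicle (SD, n = 3 each). Gatm, the first enzyme of creatine synthesis from arginine and glycine, measured 2.12 ± 0.742 CPM in iD1 and 7.05 ± 1.05 CPM in vehicle. Tat, which starts tyrosine breakdown, measured 5217 ± 1086 CPM in iD1 and 2038 ± 589.9 CPM in vehicle, and the lysine-degrading Aass rose by 1.33 on the log2 scale. The count higher was 6 without vehicle replicate 1 or vehicle replicate 2, 5 without the unnumbered vehicle library or iD1 replicate 2 and 4 without iD1 replicate 3, while 2 were lower when vehicle replicate 1, vehicle replicate 2 or iD1 replicate 3 was left out.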

How the data were processed

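RNA was sequenced from 3 iD1 and 3 vehicle livers. The table the authors deposited holds estimated counts, without depth scaling. The aligner, counter, build and annotation were not given in the sources used here. Of each library's values, 22.6% to 27.7% were not whole, and all were rounded. Reads that fit several genes can be shared out by such estimates. Symbols were found for 34582 of 34866 identifiers. Positions and exon lengths are those of GENCODE M21 on GRCm38. The vehicle column whose number matches no title entered as the unnumbered vehicle library. No 2 libraries agreed within sampling noise.

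Genes were kept by edgeR's filterByExpr (minimum count 10, minimum total 15), which left 13718. They were scaled by TMM and compared with edgeR 4.0.16 (robust quasi-likelihood F test, two-sided, R 4.3.3), called at a Benjamini-Hochberg adjusted p of 0.05 over the whole tested table. Standard errors were taken as the size of the log2 fold change divided by √F. CPM was computed on TMM-scaled library sizes. TPM values were computed from the rounded counts and exon lengths.

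Named with values were all called members and those of at least 10 CPM in a group, and of each further list the 4 called genes of smallest p. The members and lists were chosen with earlier results of these data known. The 16 alternatives included DESeq2 1.42.0 and limma 3.58.1 (voom). On simulated counts for iD1 against vehicle over 13718 genes, 13518 of them unchanged, the test recovered 4 of 67 genes changed 1.5-fold. It recovered 41 of 67 changed 2-fold and 61 of 66 changed 4-fold, with 10 false among 116 calls. The adjusted p depends on the share of changed genes, and 16.7% of genes were called in the livers. The simulated recoveries are therefore not the power of the main test. Values of 1 tested member that was not called are not reported here. The limit of 3 counts beside a count of 0 covers counting error only.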

Additional observations from a re-analysis of the deposited data

How the results depend on the processing

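Among the 12 called transporters no alternative turned the direction, and 7 kept their call without each of the 6 libraries: Slc7a2, Slc38a2, Slc38a4, Slc1a2, Slc6a9, Slc6a6 and Slc36a1. Of transporters not called, Slc6a12 turned to -0.034 with library size only. At an adjusted p of 0.01, 825 genes were called in place of 2293, and 4 transporters were higher. There were then 4 enzymes higher and 2 lower, 7 amino acid response genes higher, 0 sensing genes lower, and 0 of the other carriers either way. With a replicate block on the numbers in the titles, 827 genes were called and 5 transporters were higher, with 5 enzymes higher and 2 lower, 7 response genes higher, 0 sensing genes lower and, of the other carriers, 1 higher and 0 lower. Only replicates 1 and 2 have a partner, and deviations from the group means correlated at 0.212 between libraries numbered 1 and at -0.162 between those numbered 2, so the numbers were not taken to pair the samples. That block ended the calls of Slc38a4, Slc38a3, Slc36a4, Slc3a2, Slc6a13 and Slc7a6, and Slc3a1 was then called higher (0.88, adjusted p = 0.0462). In that fit iD1 replicate 3 and the unnumbered vehicle library each formed a block alone and added nothing to the comparison. The comparison then rests on replicates 1 and 2, so an effect of blocking cannot be told from the loss of these libraries. For Slc3a1 the library lost from iD1 was its lowest, at 19.4 CPM. Upper-quartile factors gave 4 sensing genes lower and 1 other carrier higher. Library size only gave 5 and 1, and 1 response gene lower. Of all calls, 50.4% were higher, against 38.4% under upper-quartile scaling and 24.1% under library size only. Slc7a6 was not tested under a minimum count of 50.

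All genes called numbered 1484 without vehicle replicate 1, 1308 without vehicle replicate 2, 1212 without the unnumbered vehicle library, 2574 without iD1 replicate 1, 1509 without iD1 replicate 2 and 1231 without iD1 replicate 3. Leaving out 1 library gave 5 to 11 transporters higher, 4 to 10 enzymes higher and 2 to 4 lower, 7 to 10 response genes higher, 0 to 2 sensing genes lower, and 0 to 2 other carriers higher and 0 lower. The causes were not tested. Depth limits the genes under 1 CPM, Slc7a6 among them.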
